A study of Rattus norvegicus with 3 samples.

Results

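HILS1 peaks named for the sperm genes Stpg2, Spag16, Spag6, Zpbp and Gas8 numbered 63 of the 32731 peaks in the deposited list, and 46 of them lay in introns. These peaks were taken as every entry of the list that carried one of the 5 symbols as its gene name, which is the gene with the nearest transcription start site. Chromatin of elongating/condensing spermatids from rats of 50 to 60 days had been immunoprecipitated in 2 replicates with an antibody against HILS1. HILS1 is a linker histone specific to spermatids. A single input library without antibody was the control among the samples listed, although the design text of the series speaks of a control in each of 2 runs. The protocol starts from nuclei of whole testis, no strain, treatment or genotype is stated in the labels, and a peak list has no expression values with which to check the cell type. The list holds the regions shared by both replicates on the rat genome rn5. For each called peak it gives 1 fold enrichment, the ratio of reads to the background estimated by the peak caller, so neither a spread between replicates nor the read depth behind a peak is known, and all intervals below cover counting error only. The 5 genes were chosen by peaks measured in this list, with their intronic counts, repeat names and folds known, so counts, LINE-1 shares and folds are descriptions without a test.

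Stpg2, Spag16, Spag6 and Gas8 are genes of the sperm tail, and Zpbp is one of the sperm head. The tail is a modified cilium, whose axoneme consists of outer microtubule doublets around a central pair of microtubules. Spag6, an armadillo repeat protein, and Spag16, a WD repeat protein, are parts of the central apparatus on that pair. Gas8 is a subunit of the dynein regulatory complex that links neighbouring doublets, and Stpg2 is named for its sperm-tail PG-rich repeats. Zpbp is a protein of the acrosome that binds the zona pellucida of the egg. A name such as sperm tail genes with intronic peaks therefore misses on Zpbp, and also on Gas8, which had no intronic peak. LINE-1 elements, which recur below, are retrotransposons that copy themselves through RNA, and rat introns hold many of them. L1_Rn, L1_Rat1 and RNHAL1 are the names of rat LINE-1 elements in the repeat annotation, whereas RatSatRep2 is a rat repeat whose class the annotation gives as unknown.

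The transcript in the list for Spag6 was NM_001034960 on chromosome 11, which the current RefSeq table of rat genes (GRCr8) calls Spag6l. The gene that this table calls Spag6 lies elsewhere, on another chromosome, and its transcript NM_001106125 was named for no peak. The symbol of the list is kept here. Start sites, obtained from the middle of each peak and its stated distance, were 263050120 on chromosome 2 for Stpg2, 76807090 on chromosome 9 for Spag16 and 91480026 on chromosome 11 for Spag6, all on the plus strand. Gas8 started at 67025621 on the plus strand of chromosome 19 and Zpbp at 91343430 on the minus strand of chromosome 14. None of the 63 peaks lay at a promoter. The closest to any of the start sites was a peak of Zpbp 7101 bp inside the gene.

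Stpg2 carried 34 of the 46 intronic peaks, Spag6 carried 5, Spag16 carried 4, Zpbp carried 3 and Gas8 had 0. Another 16 peaks of these genes were intergenic and 1 lay at the transcription termination site (TTS) of Gas8. LINE-1 elements held 44 of the 46 intronic peaks (95.7%, 95% Wilson interval 85.5 to 98.8), where 88.1% of all 4546 intronic peaks in the list lay in LINE-1. The interval of these genes includes the share of all introns. Of the 16 intergenic peaks, 15 lay in LINE-1 (76.1% of all intergenic peaks), which makes 59 of the 63 (77.6% of the whole list). Of the 46 intronic peaks, 27 lay in L1_Rn, 10 in L1_Rat1, 7 in RNHAL1 and 2 in RatSatRep2. Fold enrichment of the 46 ran from 10.2 to 41.7 with a median of 27.8, or 4.80 on the log2 scale (interval from order statistics 4.70 to 5.06). The median over all intronic peaks was 26.9 (log2 4.75), which lies inside that interval, and their middle 50% ran from 20.4 to 33.3. The 46 peaks were segments of 31 called peaks, since some called peaks appear in the list as several segments, all with the fold of the called peak. The intervals here and below treat each segment as a separate peak and may therefore be too narrow. Counted once for each called peak, the median fold was 26.9 in these genes and 25 over all 3340 called peaks in introns.

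**Figure D1:**
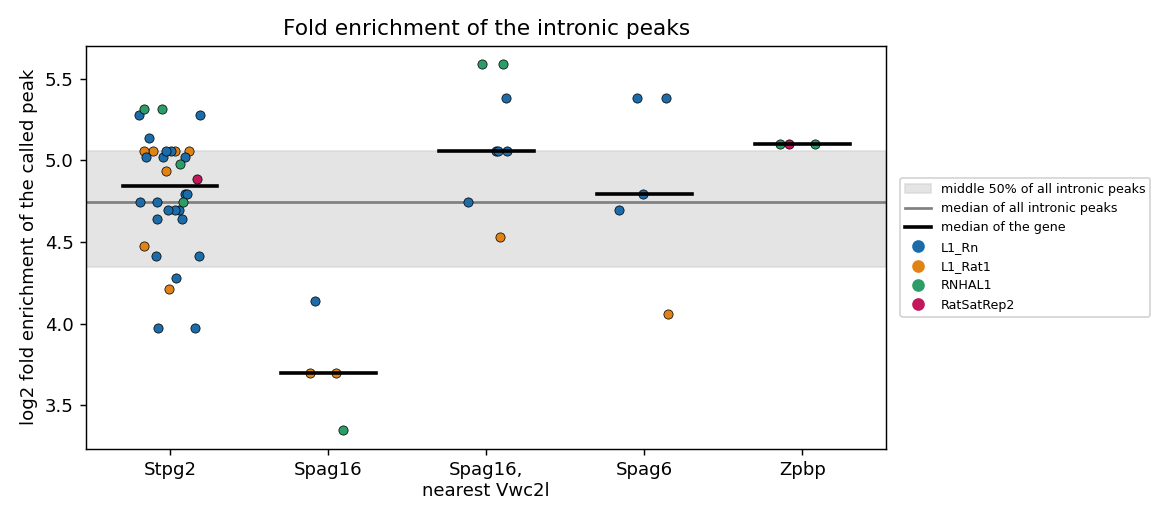
Each point is 1 intronic peak, placed by gene, with its log2 fold enrichment on the vertical axis and its repeat name in colour; black bars are medians, and the grey line and band are the median and the middle 50% of all 4546 intronic peaks. The 4 peaks named for Spag16 lie below the band, whereas the 8 peaks in Spag16 introns that are named for Vwc2l lie in or above it.

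In Stpg2, HILS1 peaks ran through the gene from 22.5 kb to 483 kb past the start site. The 34 intronic peaks ranked it second among the 1450 genes with an intronic peak by gene name, and its 33 peaks in LINE-1 ranked it first. By called peaks, 22 in number, it ranked 4, as it did when each peak was assigned to the transcript whose intron holds it, and the median gene had 2 intronic peaks. From the start site to the last intronic peak there were 7.03 peaks per 100 kb, which covered 6.84% of that stretch (33.1 kb). The window from 263 to 264 Mb of chromosome 2 held 43 peaks, all named for Stpg2, against a median of 9 in the 2565 windows of 1 Mb that held any. Only 80 windows held more.

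The peaks fell in 5 of the 13 introns of the Stpg2 transcript NM_001100993. Intron 4 held 2, intron 6 held 7, intron 10 held 11, intron 11 held 8 and intron 12 held 6. Introns 1 to 3, with no peak, lie within the first 22.5 kb. Introns 7 to 9, also without a peak, lie together inside a gap of 47882 bp and intron 5 inside one of 32834 bp. Intron 13, the last, had none either. Lengths of the introns in rn5 were not used here, so counts per intron are not set against intron length.

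**Figure D2:**
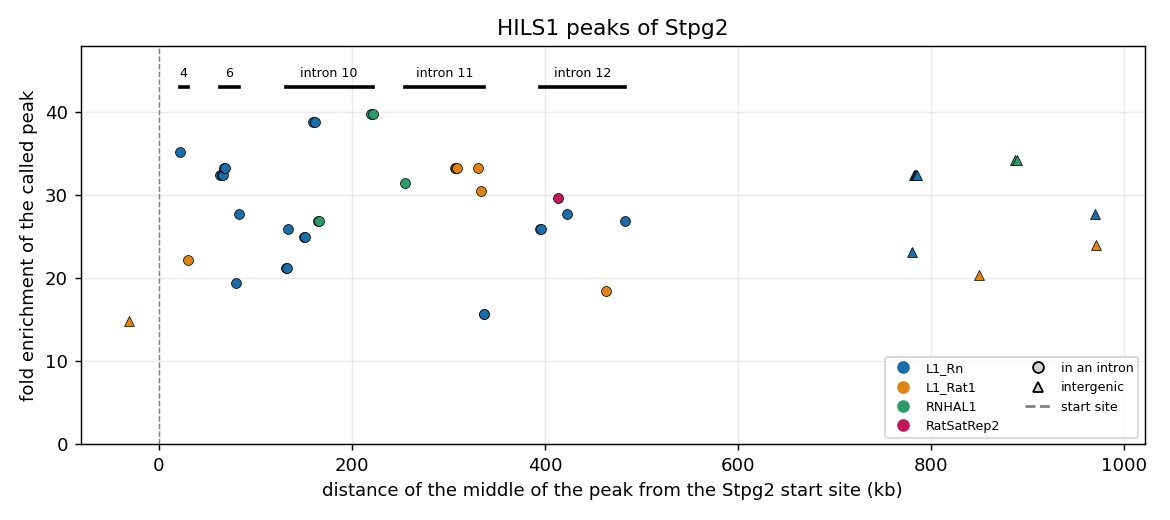
Fold enrichment of the called peak (vertical axis) against the distance of each Stpg2 peak from the start site in kb (horizontal axis), with the repeat name in colour, circles for intronic and triangles for intergenic peaks, and bars above for the extent of peaks in introns 4, 6, 10, 11 and 12. Peaks in 5 introns end at 483 kb, and a stretch of 297 kb without a peak separates them from the downstream group.

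In intron 4, a peak of 2484 bp in L1_Rn had a fold enrichment of 35.2 and a peak in L1_Rat1 one of 22.2. Intron 6 held L1_Rn peaks alone. Its 4 called peaks had folds of 32.4 (in 3 segments), 33.3 (2 segments), 19.4 and 27.8. Within 6238 bp, from 263113283 to 263119521, lay 5 of its 7 peaks, which made it the run with the most peaks less than 6000 bp apart in the gene.

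Intron 10 held the highest fold of Stpg2. Its first 5 called peaks, in L1_Rn, had folds of 21.3, 25.9, 25, 38.9 and 26.9, and the last segment of the fifth was annotated to RNHAL1. The sixth, entirely in RNHAL1 and 52611 bp further on, had 39.8. The order of repeat names along the gene thus passed from L1_Rn to RNHAL1 towards the end of this intron. Intron 11 began with an RNHAL1 peak of 31.5. Then came 3 called peaks in L1_Rat1, with folds of 33.3 (3 segments), 33.3 and 30.6, and 1 in L1_Rn with 15.7, the lowest of the gene. In intron 12 the folds were 25.9, 29.6, 27.8, 18.5 and 26.9, all below the median of intron 11, 32.4. The peak of 29.6, at 263463033 to 263463797, lay in RatSatRep2 and was the only intronic peak of Stpg2 outside LINE-1. Medians by intron ran from 26.4 in intron 12 to 32.4 in introns 6 and 11, and the ranges of all 5 introns overlapped.

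By repeat name, the 22 peaks of Stpg2 in L1_Rn had a median fold of 26.9 (log2 4.75, interval 4.64 to 5.02), while L1_Rn peaks in all introns had 31.5 (log2 4.98). The 7 in L1_Rat1 had 33.3 against 25 over all intronic L1_Rat1 peaks, although 4 of these 7 share a fold of 33.3, 3 of them as segments of 1 called peak. The 4 in RNHAL1 had 35.6, where all intronic RNHAL1 peaks had 26.9. Over all introns L1_Rn had the highest median of these 3 names, and in Stpg2 it had the lowest. These values come from 14, 5 and 3 called peaks and were not tested.

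Gaps between neighbouring intronic peaks of Stpg2 had a longer median than those of all genes. Of its 33 gaps, 19 were under 6000 bp (57.6%), 5 under 100 bp (15.2%) and 7 over 30 kb (21.2%). Over all 3093 gaps between intronic peaks of the same gene these shares were 66.3%, 12.4% and 21.6%. The median gap was 2401 bp in Stpg2 and 963 bp over all genes. For the 46 intronic peaks of the genes described here together, the median gap was 3838 bp. Its interval, 618 to 15461 bp, includes 963 bp but is not an interval for Stpg2 alone, and none is given for that gene. Segments of the same called peak were 8 to 1152 bp apart (12 gaps, median 151 bp) and neighbours from different called peaks 501 to 56527 bp (21 gaps, median 15461 bp). Counting peaks less than 6000 bp apart once left 15 runs, of which 10 held more than 1 peak. In 7 of these 10 runs all peaks carried the same repeat name.

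**Figure D3:**
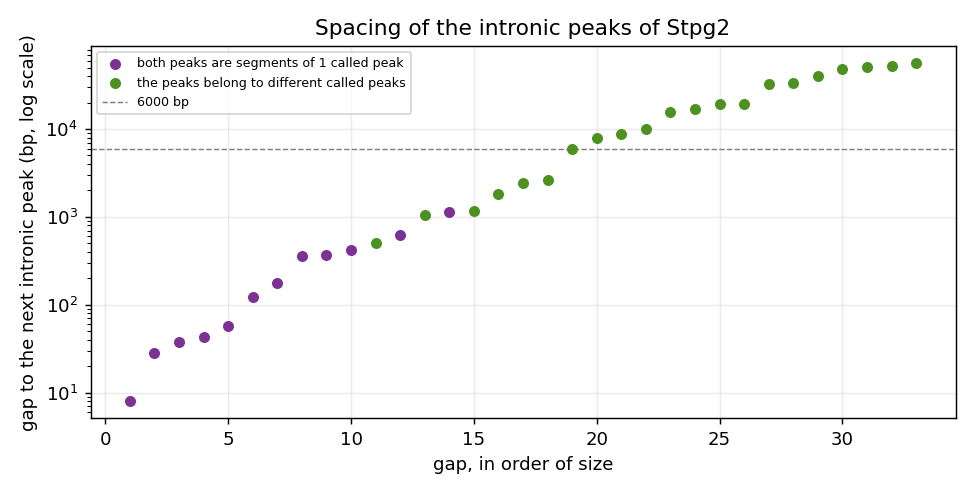
The 33 gaps between neighbouring intronic peaks of Stpg2 in order of size, with the gap in bp on a log axis; purple points join segments of the same called peak and green points join different called peaks, and the dashed line is at 6000 bp. Gaps inside a called peak reach 1152 bp and those between called peaks 56527 bp.

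Outside the gene, 11 intergenic peaks were named for Stpg2, all in LINE-1. A single one lay upstream, 30601 bp before the start site, in L1_Rat1 with a fold of 14.8, which is below every intronic peak of the gene. The next peak beyond it, named for Rap1gds1, was 247 kb away. Downstream, after 297 kb without a peak, 10 peaks spread over 192 kb, from 263830146 to 264021941. They came from 6 called peaks with folds of 20.4 to 34.3, a range that lies within that of the intronic peaks. The median fold over the 10 peaks was 32.4. It counts segments of the same called peak separately, and several segments of a called peak in L1_Rn share that fold. Of the 10 peaks, 6 lay in L1_Rn, 2 in L1_Rat1 and 2 in RNHAL1. The last was 971 kb from the Stpg2 start site and a further 451 kb separated it from the first peak named for Pdha2, so the name Stpg2 marks only the nearest annotated start here.

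Spag16, the other long gene, held fewer and more scattered peaks. By gene name it had 4, and 3 of them lay in intron 2 of the 8 introns of NM_001134728. These were an RNHAL1 peak with a fold of 10.2, 72.0 kb past the start site, an L1_Rat1 peak with 13.0 at 157 kb and an L1_Rn peak with 17.6 at 190 kb. The one in intron 4, in L1_Rat1 at 399 kb, had 13.0. Their false discovery rates, the share of peaks as strong that arises when ChIP and input are exchanged, were higher than usual. The values of 19%, 15.4%, 9.31% and 14.1% lay above the median of 7.61% over all intronic peaks. All 4 folds lay under 20.4, the lower quartile of all intronic peaks. The gaps between them, 32443 to 208935 bp, left none within 6000 bp of another.

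Another 8 peaks lay in introns of the same Spag16 transcript but carried the name Vwc2l, since the start site of that neighbouring gene was the nearer one. In intron 6, an L1_Rn peak with a fold of 26.9 was followed by 3 segments of an L1_Rn called peak with 33.3. In intron 8, L1_Rn had 41.7, an RNHAL1 called peak in 2 segments had 48.2 and L1_Rat1 had 23.2. The fold of 48.2 exceeded that of 97.6% of the whole list and was above every intronic peak of Stpg2, Spag6 and Zpbp. The 8 folds, 23.2 to 48.2, came from 5 called peaks. They did not overlap the 4 of introns 2 and 4, 10.2 to 17.6, from 4 called peaks. How often intronic peaks of a gene separate in this way over the whole list was not counted. The line between these groups is the point at which the nearest start site changes, between 399 kb and 482 kb from the Spag16 start. With all 12 peaks counted, which came from 9 called peaks, all lay in LINE-1, the median fold of Spag16 was 30.1 instead of 13.0, and there were 1.79 peaks per 100 kb over 670 kb. Counted once for each called peak, the median fold was 23.2, where all called peaks in introns had 25. For the 12 peaks, the interval of the median log2 fold, 3.70 to 5.38, includes that of all intronic peaks. A single intergenic peak of Spag16, in L1_Rn 37185 bp before the start site, had a fold of 28.7, higher than any of the 4 intronic peaks under its own name.

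**Figure D4:**
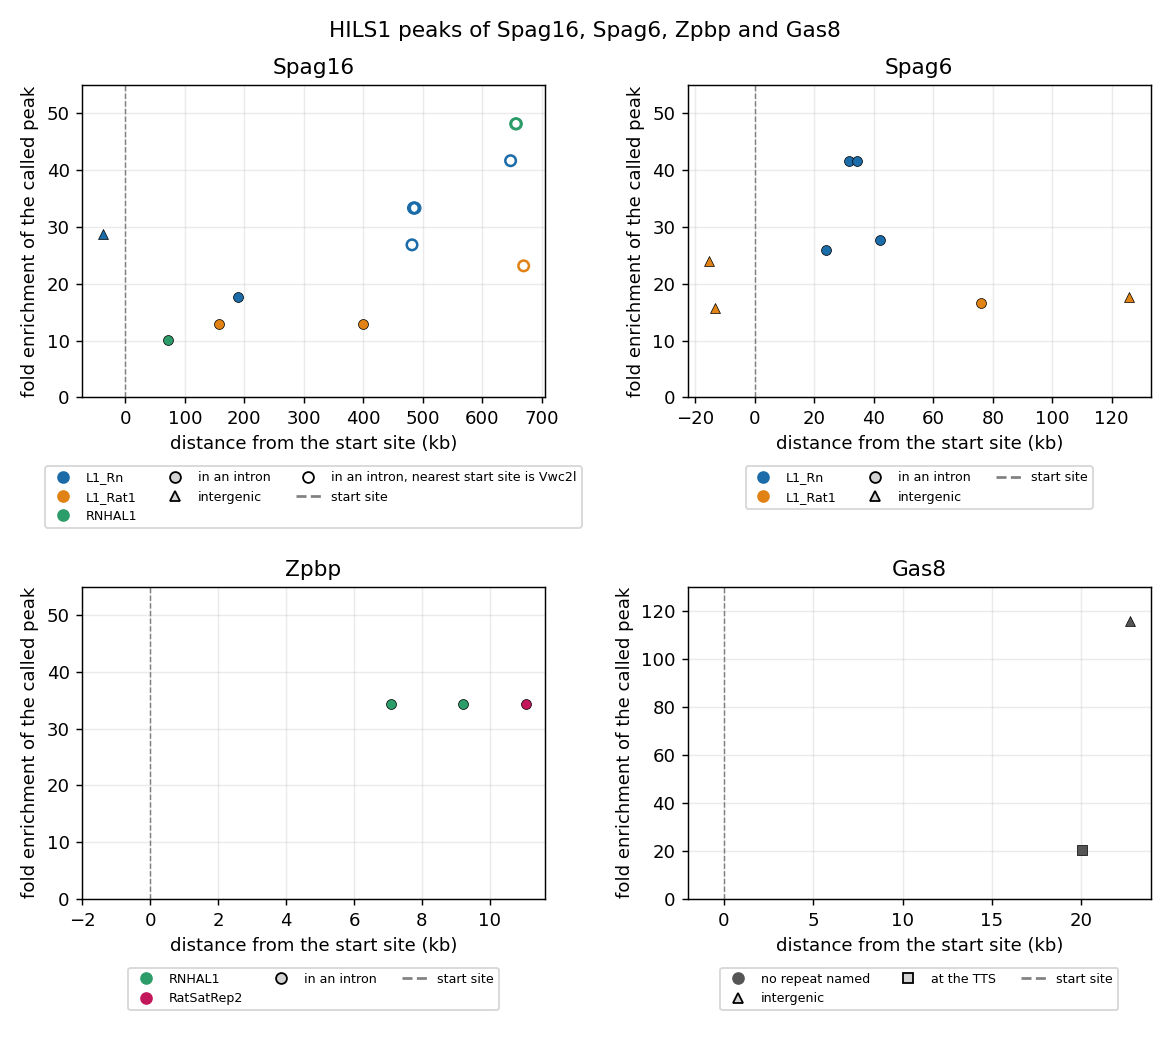
Fold enrichment of the called peak against distance from the start site (kb) for Spag16, Spag6, Zpbp and Gas8, with the repeat name in colour; circles are intronic, triangles intergenic and the square lies at a TTS, and open circles lie in Spag16 introns but are named for Vwc2l. The vertical axis reaches higher for Gas8, whose intergenic peak has a fold of 116.

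Spag6, a much shorter gene, had a peak density close to that of Stpg2 when each was counted up to its last intronic peak. Densities over whole genes were not computed. Its 5 intronic peaks reached 76.2 kb past the start site, which gives 6.56 per 100 kb and a covered share of 10.5%. Intron 3 of 10 held 4 of them, all in L1_Rn. The first had a fold of 25.9. A called peak in 2 segments of 1805 and 3895 bp, 8 bp apart, had 41.7, a value above that of 93.7% of all peaks, and the longer segment was the longest peak of the 63. The last of intron 3 had 27.8. In intron 8 an L1_Rat1 peak of 576 bp had 16.7, below all peaks of intron 3. The 3 intergenic peaks named for Spag6 were all in L1_Rat1. Those upstream, 15389 and 13251 bp before the start site, had folds of 24.1 and 15.7, and the one downstream, 126 kb past it, had 17.6. Beyond them, a peak named for Igll1 in the simple repeat (TCCA)n, 8479 bp further upstream, had 16.7, and an L1_Rn peak named for Fgd4, 64.6 kb further downstream, had 35.2. Each of the 4 L1_Rat1 peaks named for Spag6 thus had a lower fold than each of its 4 L1_Rn peaks, which came from 3 called peaks. The order is that of all introns in the list, where L1_Rat1 peaks had a median fold of 25 and L1_Rn peaks 31.5. The intronic peaks of Stpg2 had the opposite order, with 33.3 in L1_Rat1 and 26.9 in L1_Rn. In Spag6, 3 of the 4 L1_Rat1 peaks were intergenic and all 4 L1_Rn peaks intronic, so repeat name and location cannot be told apart. The difference in Spag6 was not tested.

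Zpbp carried a single called peak in 3 segments, all in intron 2 of 7, with a fold of 34.3 that 79.5% of the list did not reach. The segments spanned 91332160 to 91336728 on chromosome 14. The middle one of 3058 bp and the one of 797 bp nearest the start site lay in RNHAL1, and the one of 423 bp furthest from it lay in RatSatRep2. No peak lay within 125 kb on either side of these segments. The other intronic RatSatRep2 peak of these genes was that of Stpg2. In Zpbp the nearest neighbour was an RNHAL1 segment 98 bp away, and in Stpg2 it was an L1_Rn peak 8857 bp away. Among all 93 intronic RatSatRep2 peaks, 62 had a LINE-1 peak within 6000 bp (66.7%), and 11 an RNHAL1 peak (11.8%).

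Gas8 had no intronic peak. Its pair of peaks lay at the 3′ end, and for neither did the list name a repeat. The peak at the TTS, 268 bp long, had a false discovery rate of 13.0%, and the intergenic one that followed after 1958 bp had 9.45%. Over all peaks the median rate was 7.64%. The score, minus 10 times the log10 of the p-value, was 135 for the TTS peak and 3100 for the intergenic one. Peaks of Spag6, Zpbp and Stpg2 with a score of 3100 had the same rate of 9.45%. A rate above the median thus did not mark a low score in these peaks. The TTS peak had a fold of 20.4 and the intergenic one 116, which was 5.68 times as high. The next highest fold among the 63 peaks was 41.7, in Spag6. Only 13 of the 3397 intergenic peaks without a named repeat had a fold this high, including this one, and their median was 16.7. On chromosome 19 it was among 3 of 1009 peaks. The next peak followed after 577 kb, and the nearest before the TTS, 44644 bp away, lay in an intron near Afg3l1 with a fold of 10.2.

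The names of the called peaks hold serial numbers that rise along each chromosome without exception, so missing numbers mark called peaks that did not enter the deposited list. Over the whole list, 24679 of 46576 serial numbers were present (53.0%). Between the first and the last intronic peak of Stpg2, 22 of 28 numbers were present, in Spag16 9 of 10, in Spag6 4 of 6 and in Zpbp the only one. Together these are 36 of 45 (80.0%). Each of these stretches starts and ends with a listed peak by its definition, which raises its share. Whether a missing number had no partner in the other replicate or fell outside the length limits is not given.

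The genes whose intronic peaks were most like those of Stpg2 in repeat names, by the summed smaller share of each name among the 76 genes with at least 10 intronic peaks, were Ccdc89 (93.6% overlap), Mir592 (88.6%) and Sugct (86.9%). The 12 peaks named for Ccdc89 lay in introns of Dlg2 and the 25 named for Mir592 in introns of Grm8, a glutamate receptor gene, so the name is again that of the nearest start site. Their median folds were 22.2, 25.9 and 26.9. Spag16, with 4 peaks by name, was most like LOC304725 (88.5%), Atp10a (85.0%), whose 10 peaks lay in introns of LOC108353803, and Tmem135 (83.3%). These 4 peaks are fewer than the 10 asked of the other genes, and they leave out the 8 in Spag16 introns named for Vwc2l. By name, 1 lay in L1_Rn, 2 in L1_Rat1 and 1 in RNHAL1, and by transcript 6, 3 and 3. The likeness by transcript was not computed, and the order of the genes could differ.

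Other genes of the tail and the acrosome were also named for HILS1 peaks. Of 172 genes in lists of these structures, 26 were the nearest gene of any peak, 11 of an intronic one, and 8 held a peak in an intron of their own transcript. The current RefSeq table knows 167 of the 172. Among its 18539 protein-coding genes with a curated transcript, matched by symbol, 20.8% were the nearest gene of a peak and 6.85% of an intronic one. Of the 120 list genes in that base these were 24 (20%) and 10 (8.33%), the genes described first included. Those genes were chosen with their peaks known, which can raise both shares, and shares without them were not computed. A match by symbol also cannot tell Spag6 of the list from the gene that the current table calls Spag6. The list genes are therefore not shown to differ from the base. Among the 4777 genes nearest to any peak, 30.4% were nearest to an intronic one. In the central apparatus list, 3 of 21 genes had intronic peaks. Next to Spag6 and Spag16 this was Spef2, a central pair protein, with 4 in its own introns, all in LINE-1, and folds of 19.4 to 33.3. Among the radial spoke genes, Ropn1l was nearest to 2 intronic peaks that lay in Marchf6, while Cfap206 held 3 in its own introns, segments with a fold of 47.2. The dynein regulatory complex list, 15 genes, was represented by Gas8 alone. Of the 31 dynein genes and their assembly factors, Lrrc6 was nearest to 1 intronic peak, in an intron of Tmem71, and no gene held one in its own transcript. The remaining tail list of 47 genes had Stpg2, then Efhc2, a flagellar EF-hand protein, with 2 RNHAL1 peaks in its introns, the tektin gene Tekt1 with 1 outside any named repeat (fold 13.9) and Cabyr, a fibrous sheath protein, nearest to 1 peak in Osbpl1a. Among the 37 acrosome genes, Eqtn was nearest to 5 intronic peaks that lay in Tek, and Zpbp was the only one with a peak in its own intron. The 4 genes with peaks in their own introns outside those described first, Spef2, Cfap206, Efhc2 and Tekt1, held 10 together, 9 of them in LINE-1, with a median fold of 33.3. Over all intronic peaks 88.1% lay in LINE-1 and the median fold was 26.9. The median of the 10 counts segments separately, among them the 3 of Cfap206, and was not computed for each called peak.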

How the data were processed

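After trimming (Trim Galore), the authors mapped reads to rn5 with Bowtie2 and kept unique, non-duplicate alignments. MACS called peaks per replicate with the input as control. Regions found in both replicates were intersected (bedtools) and annotated (HOMER). FastQC and SAMtools are further tools in the submitters' processing notes. As only unique alignments were kept, near-identical repeat copies can be missed.

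The deposited fold is a linear ratio to the background that MACS estimated, from a replicate that is not stated. The deposited score is minus 10 times the log10 of the p-value, and false discovery rates were deposited as percent values. Read totals were not used here.

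Peaks of the 5 genes were taken by gene name, and introns and transcripts from the annotation. LINE-1 shares have 95% Wilson intervals, and medians of log2 fold have intervals from order statistics. No test was run. A gap is the distance from the end of a peak to the start of the next peak of the same gene. Positions are given as in the list. A transcript took the symbol that the list pairs with it, or otherwise that of RefSeq (GRCr8, for names only). Members and gene lists were chosen with earlier results of these data known. Genes named are the 5 members, up to 4 genes of each list with the most intronic peaks, the 3 genes most like Stpg2 and Spag16, and hosts of their peaks. Cfap206, Rap1gds1, Pdha2, Igll1, Fgd4 and Afg3l1 were added after their values were seen. In alternative settings, a called peak was represented by its longest segment, a minimum was set for score (100), fold (16) or length (500 bp), the false discovery rate was capped at 10%, peaks closer than 6000 bp were merged into 1, introns were assigned by transcript, or Stpg2 was left out. Interval and run functions were tested on simulated data. Python 3.11.15, numpy 2.4.6, pandas 2.3.3, scipy 1.17.1 and matplotlib 3.10.9 were used.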

Additional observations from a re-analysis of the deposited data

How the results depend on the processing

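The share of intronic peaks in LINE-1 (91.3% to 97.7%) and their median log2 fold (4.75 to 4.93) stayed within the interval of the reported values under all 8 alternatives. The number of intronic peaks, 46, and the median gap of 3838 bp depended on what counts as a peak. With peaks less than 6000 bp apart counted once, 23 peaks remained at a median gap of 32834 bp. Keeping the longest segment of each called peak left 31 peaks and a median gap of 16762 bp. With the false discovery rate capped at 10% the median gap was 2401 bp. Leaving out Stpg2 left 12 peaks and a median gap of 6393 bp. Assigned by transcript, Spag16 had 12 intronic peaks instead of 4. By name, 1 peak of Spag16 was left with a minimum fold of 16, and 1 with the false discovery rate capped at 10%. No paired analysis was possible because the list has 1 value per peak and none per replicate. Which replicate gave the folds is unknown, so their error cannot be stated.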
